A study of Rattus norvegicus with 6 samples.

Results

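The genes described here copy DNA and supply its building blocks. They are 43 genes of origin licensing, the replication fork, deoxynucleotide supply and chromatin assembly behind the fork, taken from a table of 34045 genes by matching each gene symbol to a listed name. All 43 symbols were found. The study implanted hydrogels into defects of the skull vault (calvaria) of male, wild-type Sprague-Dawley rats and took the tissue of the defect at week 4 after surgery. The treated group received the gel named CGG-Cit and its control group the gel named CGG, with 3 RNA-seq libraries in each. No label spells out what either name stands for, and every library came from an implanted defect, so a defect without a gel and intact bone are not part of the comparison. Total RNA of the minced defect tissue was sequenced from both ends on an Illumina NovaSeq. Levels are given as FPKM, fragments scaled for gene length and for a library size that was not the plain number of fragments recovered. No label says that the libraries of a group came from separate rats, so p-values measure how far libraries differ, which may be technical.

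Before a cell divides it copies its genome once. Origins are licensed in G1 when the origin recognition complex, Cdc6 and Cdt1 load the ring-shaped Mcm helicase onto DNA, and the ring is switched on at the start of S phase by Cdc45 and the GINS complex. Polymerase alpha with primase then starts each strand, the clamp Pcna holds polymerases delta and epsilon on the template, and ribonucleotide reductase, thymidine kinase and thymidylate synthase provide deoxynucleotides. Most of these genes are switched on as cells enter S phase by transcription factors of the E2F family, and they are read in tissues as a sign of dividing cells, in bone chiefly marrow precursors and the cells that build new bone.

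Since E2F control is the best known feature that these genes share, their promoter windows were searched for E2F letters. RefSeq windows of build GRCr8, which run from 250 bases before to 50 bases after a gene's start, were matched by symbol for 38 of the 43 genes. The letters searched were TTTCGCGC, TTTGGCGC, TTTCCCGC and TTTGCCGC on both strands, and overlapping copies were counted separately. Uhrf1 is listed with several windows, and a string in any of them was counted. At least 1 such string stood in the windows of 20 of the 38 genes (52.6%), against 560 of 19005 protein-coding genes (2.95%) and 716 of all 33469 windows in the RefSeq table (2.14%). The 20 genes held 30 strings, of which 12 were TTTCGCGC, 10 TTTGGCGC, 7 TTTCCCGC and 1 TTTGCCGC. In 17 of the 20 genes a string began within 60 bases of the gene's start. The windows of the helicase subunits Mcm2, Mcm3, Mcm5, Mcm6 and Mcm7 are shown whole. Each held at least 2 strings, as did windows of Cdt1, Gins1, Rfc3 and Uhrf1. The sequences are written 5′ to 3′ in the gene's own direction, with the E2F strings in capitals.
Mcm2 (chr4:122918045-122918344, minus strand): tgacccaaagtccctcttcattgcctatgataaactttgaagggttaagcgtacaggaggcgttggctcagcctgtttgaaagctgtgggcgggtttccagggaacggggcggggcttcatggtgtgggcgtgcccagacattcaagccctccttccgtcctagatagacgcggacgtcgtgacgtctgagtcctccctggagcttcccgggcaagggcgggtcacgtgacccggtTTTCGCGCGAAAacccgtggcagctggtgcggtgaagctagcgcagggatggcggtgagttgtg
Mcm3 (chr9:30733697-30733996, minus strand): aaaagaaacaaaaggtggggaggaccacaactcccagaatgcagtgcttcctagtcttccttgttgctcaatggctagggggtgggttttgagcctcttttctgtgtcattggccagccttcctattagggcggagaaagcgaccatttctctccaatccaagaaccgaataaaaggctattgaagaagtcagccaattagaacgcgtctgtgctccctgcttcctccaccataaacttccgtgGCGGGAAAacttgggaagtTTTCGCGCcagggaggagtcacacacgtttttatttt
Mcm5 (chr19:13488563-13488862, plus strand): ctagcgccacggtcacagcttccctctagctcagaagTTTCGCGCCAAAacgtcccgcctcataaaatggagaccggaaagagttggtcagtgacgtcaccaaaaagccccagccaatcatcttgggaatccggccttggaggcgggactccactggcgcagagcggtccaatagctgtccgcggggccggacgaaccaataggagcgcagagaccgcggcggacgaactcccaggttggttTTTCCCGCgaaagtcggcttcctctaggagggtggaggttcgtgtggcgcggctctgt
Mcm6 (chr13:42404303-42404602, minus strand): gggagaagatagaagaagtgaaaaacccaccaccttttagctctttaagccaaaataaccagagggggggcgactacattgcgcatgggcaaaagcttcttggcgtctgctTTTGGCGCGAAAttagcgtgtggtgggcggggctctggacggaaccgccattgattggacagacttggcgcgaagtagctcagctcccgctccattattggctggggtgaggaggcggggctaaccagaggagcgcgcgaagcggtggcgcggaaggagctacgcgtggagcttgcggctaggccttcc
Mcm7 (chr12:22163129-22163428, minus strand): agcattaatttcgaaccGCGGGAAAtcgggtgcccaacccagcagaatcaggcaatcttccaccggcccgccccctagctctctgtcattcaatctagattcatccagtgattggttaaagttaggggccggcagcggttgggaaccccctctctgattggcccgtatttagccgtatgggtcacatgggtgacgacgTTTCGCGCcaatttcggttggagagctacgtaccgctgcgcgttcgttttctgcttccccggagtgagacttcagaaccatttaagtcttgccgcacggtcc
In Mcm2 and Mcm6 the strings of both strands overlap into a run of 12 capitals, and the upstream run of Mcm5 does the same. Shorter stretches, with up to 20 bases on each side, show the strings of genes from the other steps of replication: the licensing factor Cdt1, the helicase cofactor Gins1, the clamp loader subunit Rfc3, thymidylate synthase Tyms and the fork protein Clspn.
Cdt1 (chr19:67529236-67529288, plus strand): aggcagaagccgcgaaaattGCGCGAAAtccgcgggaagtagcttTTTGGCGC
Gins1 (chr3:160184879-160184926, plus strand): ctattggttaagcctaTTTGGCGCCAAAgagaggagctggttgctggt
Rfc3 (chr12:5836545-5836592, plus strand): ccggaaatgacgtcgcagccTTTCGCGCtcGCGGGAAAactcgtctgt
Tyms (chr9:120776093-120776140, minus strand): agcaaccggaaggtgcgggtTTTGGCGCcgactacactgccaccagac
Clspn (chr5:144134638-144134685, plus strand): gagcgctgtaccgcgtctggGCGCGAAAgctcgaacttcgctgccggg
Gins1 held the same overlapped arrangement, while Cdt1 and Rfc3 each held 2 separate strings and Tyms and Clspn 1 each. The box CCAAT, on either strand, stood in 22 of the 38 windows (57.9%) and in 39.8% of protein-coding genes. The letters TTTGAA, known as the core of an element in promoters of mitotic genes, stood in 3 windows (7.89%) and in 18.1% of protein-coding genes. The median GC content was 59.7% in the windows of the 38 genes and 55.3% over protein-coding genes, so the shares are not matched for base composition. A match is a run of letters and not a measured binding site.

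**Figure D1:**
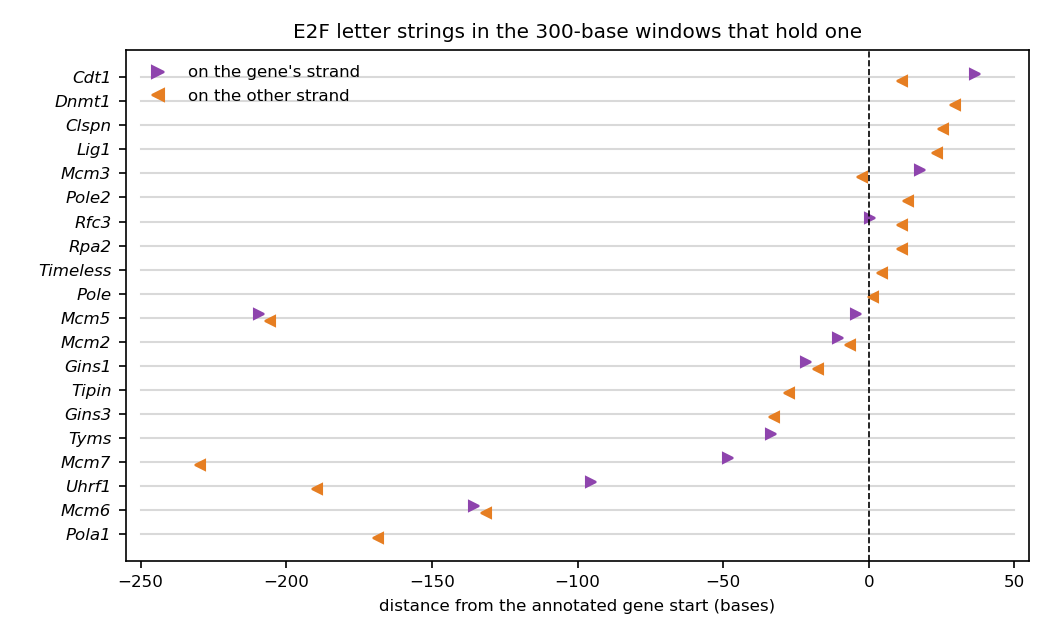
Middle of each E2F string relative to the annotated gene start (x axis, bases) for the 20 genes with a string (y axis). The triangle's direction and colour give the strand. In 17 of the 20 genes a marker lies within 60 bases of the start, and Mcm6, Uhrf1 and Pola1 have theirs only farther upstream.

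Behind the values, 14744207 to 16127352 fragments were recovered in the CGG-Cit libraries and 15054925 to 16224920 in the CGG libraries, and each of the 43 genes had between 55 (Chaf1b) and 3390 (Rrm1) fragments in a library. Osteoblast markers were present in every library of this bone tissue and summed to 5088 to 9537 FPKM in CGG-Cit and 10497 to 15086 FPKM in CGG libraries. Skeletal muscle genes summed to 33.5 to 313 FPKM in CGG-Cit and 6313 to 7128 FPKM in CGG libraries, and all 8 were lower by limma at an adjusted p under 0.05. CGG-Cit 3 stood closest to the CGG libraries on most lists, and the results are therefore given with and without single libraries.

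Genes of every step of replication were lower in the CGG-Cit defects than in the CGG defects. Of the 43 genes, 34 passed the test as lower and 0 as higher, while 9 passed in neither direction. At an unadjusted p under 0.05, 41 were lower and 0 higher, but the share of all genes at that threshold was not counted. The test was limma on log2(FPKM + 1) with Benjamini-Hochberg adjustment over 15965 genes that averaged 0.5 FPKM or more, as all 43 did, and an adjusted p under 0.05. Over all genes tested, 9.78% passed as lower and 7.75% as higher. The median log2 fold change of the 43 genes, CGG-Cit minus CGG, was -0.78, against 0.00 over all genes tested, and 7.65% of all genes lay below that median. At the median gene the CGG-Cit mean was 53.7% of the CGG mean. The groups did not overlap in 42 genes, of which 41 were lower in every CGG-Cit library and 1, Rnaseh2a, higher, and in Lig1 they overlapped. Over all genes, 22.1% were lower and 19.6% higher in every CGG-Cit library.

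The estimates were negative for 42 of the 43 genes in each of the 18 alternative fits, but the calls rested on few libraries. None of the 34 passed without CGG-Cit 2 or without CGG 3 (adjusted p from 0.0504 and from 0.0516 upwards). In each of these fits 36 of the 43 had an unadjusted p under 0.05, for which no share of all genes was counted. By voom on the recovered fragments of all 6 libraries, 36 passed as lower and 0 as higher. The count was 7 without CGG-Cit 1, 6 without CGG 1, 10 without CGG 2 and 38 without CGG-Cit 3. The shares of all genes called lower in these fits were 1.56% without CGG-Cit 2, 1.19% without CGG 3, 3.06% without CGG-Cit 1, 4.17% without CGG 1, 3.12% without CGG 2 and 10.2% without CGG-Cit 3, and 9.81% by voom. With no filter on low values 22 of the 43 genes passed as lower, against 5.1% of all genes. With levels rescaled to TPM, which sums to the same total in each library, 19 passed as lower, against 5.94% of all genes. That rescaling shifted all genes by a median of 0.16 on the log2 scale. Relative to all genes, the median of the 43 was -0.79 as deposited and -0.85 on the TPM scale. In bulk tissue, fewer dividing cells and less of these transcripts per cell cannot be told apart. Skeletal muscle genes also differed between the groups, and the part of tissue make-up in the result was not tested.

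**Figure D2:**
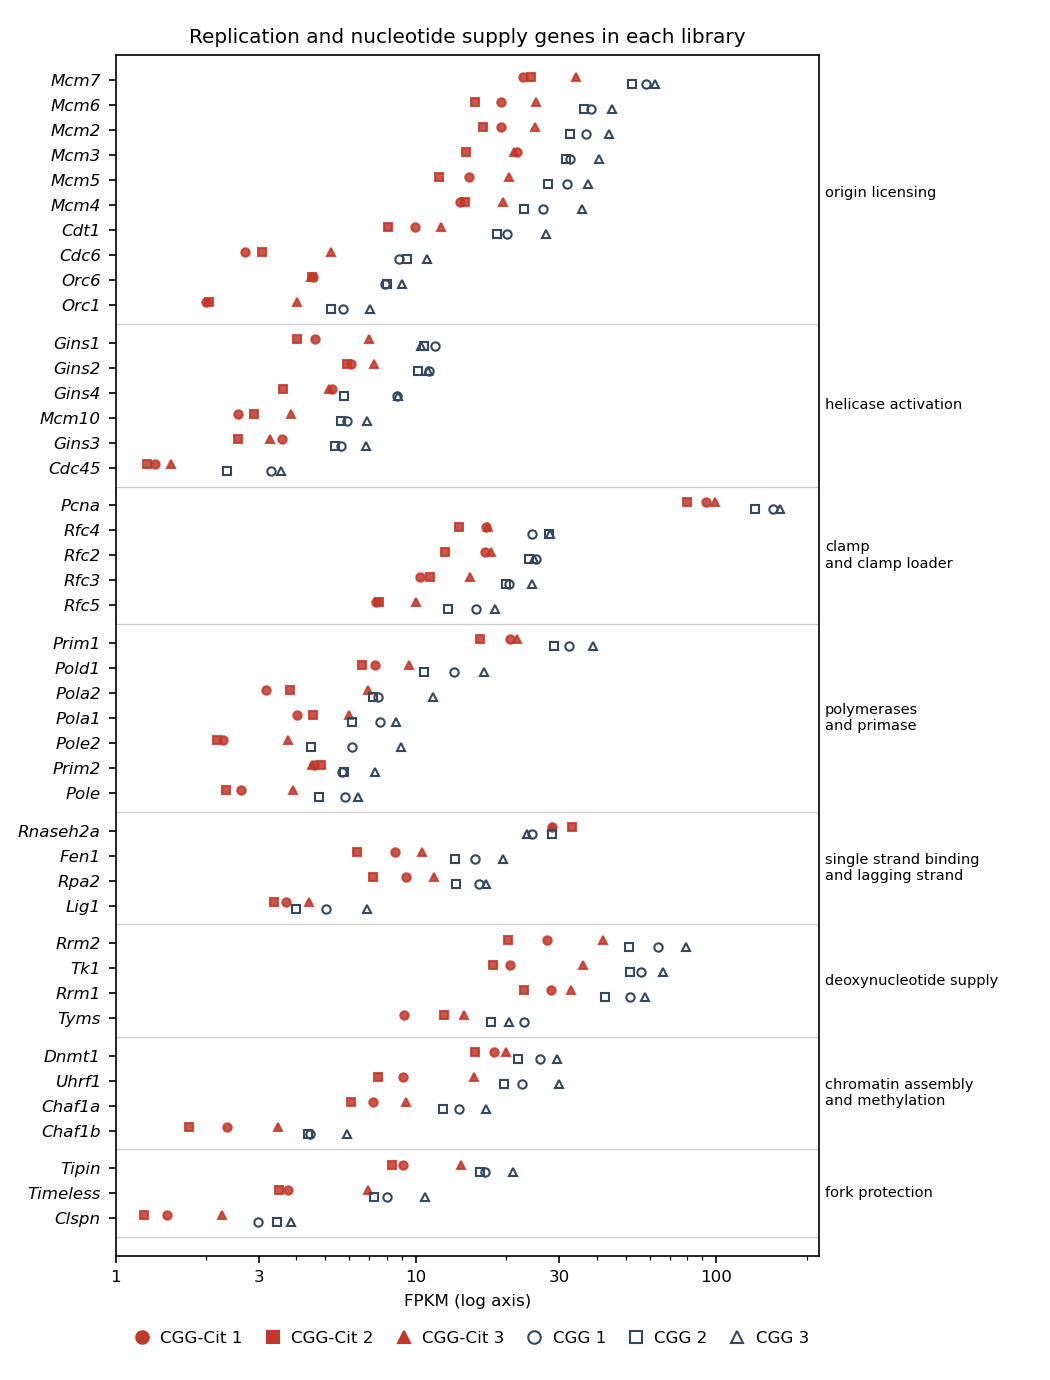
Level of each of the 43 genes in each library (FPKM, log axis), with CGG-Cit and CGG libraries in separate colours and genes grouped by role. Each CGG-Cit library lies below each CGG library in 41 genes. Lig1 overlaps and Rnaseh2a lies above.

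**Figure D3:**
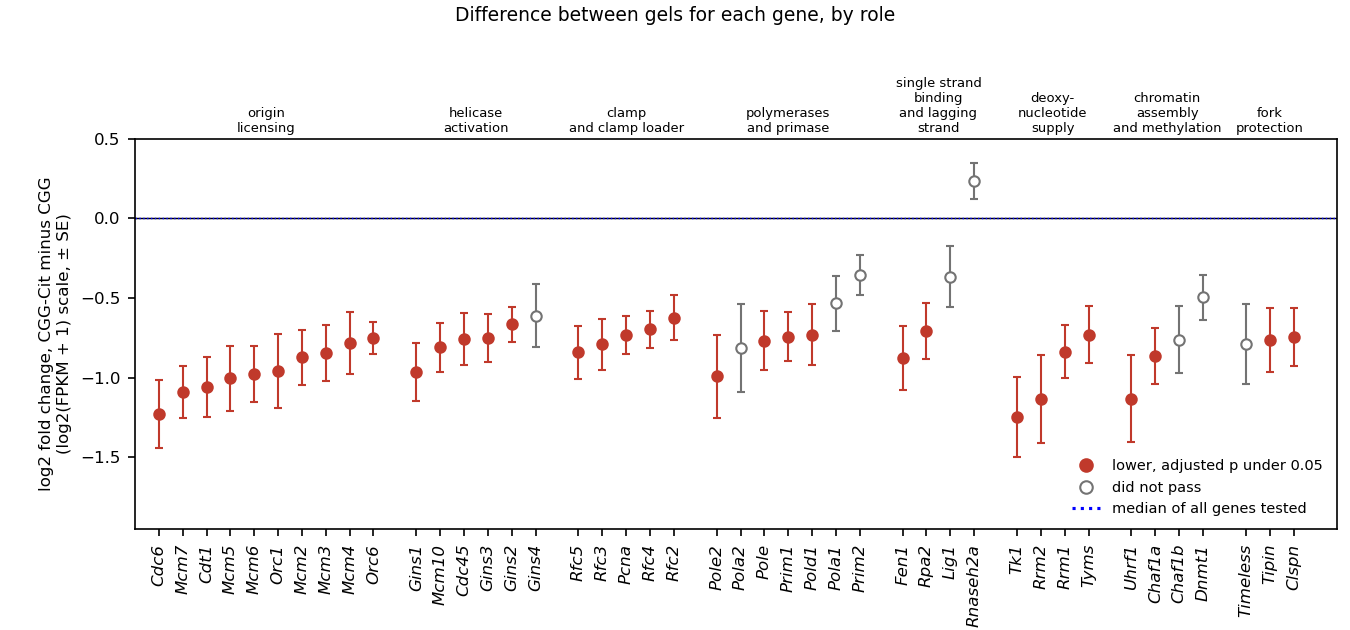
Log2 fold change of each gene, CGG-Cit over CGG, fitted to log2(FPKM + 1) values, with its SE and with genes grouped by role and ordered by size. Filled points are the 34 genes lower at an adjusted p under 0.05, open points the 9 that did not pass, and the dotted line is the median of all genes tested (0.00).

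The libraries kept a common order across these genes. CGG-Cit 3 was the highest CGG-Cit library in 37 of the 43 genes and CGG-Cit 2 the lowest in 30. Among the controls, CGG 3 was highest in 38 genes and CGG 2 lowest in 36. The median coefficient of variation was 21.0% among CGG-Cit libraries and 14.9% among CGG libraries.

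All 10 genes of origin licensing were lower, with a median log2 fold change of -0.97. Cdc6, the ATPase that recruits the helicase to the origin, had the lowest level relative to its control of the 34 genes that passed, 37.9% of the CGG mean. It had 2.70, 3.08 and 5.24 FPKM in the 3 CGG-Cit libraries, against 8.82, 9.35 and 10.9 FPKM in the 3 CGG libraries (log2 fold change -1.23, SE 0.212, adjusted p = 0.0181). Even the highest CGG-Cit library, CGG-Cit 3, was well below the lowest CGG library. Cdt1, its partner in loading the helicase, had 9.91, 8.10 and 12.1 FPKM in CGG-Cit libraries, against 20.2, 18.6 and 27.2 FPKM in CGG libraries (log2 fold change -1.06, SE 0.187, adjusted p = 0.0190). The groups did not overlap, and CGG 3 was the highest of all. Orc1, the largest subunit of the origin recognition complex, had 1.998, 2.05 and 4.01 FPKM in CGG-Cit libraries, against 5.74, 5.21 and 7.05 FPKM in CGG libraries (log2 fold change -0.96, SE 0.231, adjusted p = 0.0358). CGG-Cit 3 stood well above the other CGG-Cit libraries but below every CGG library. Orc6, the smallest subunit, stood out for its even values, with 4.54, 4.50 and 4.49 FPKM in CGG-Cit libraries, against 7.88, 7.997 and 8.99 FPKM in CGG libraries (log2 fold change -0.75, SE 0.102, adjusted p = 0.0110). Its adjusted p was the smallest of the 43 genes. Without single libraries the adjusted p of the 10 genes reached values up to 0.123 (Mcm4), and on the TPM scale the calls of Orc1 and Mcm4 ended (adjusted p 0.0555 to 0.0796), as they did with no filter on low values (0.0620 to 0.0639).

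The 6 subunits of the Mcm2 to Mcm7 ring, the motor that unwinds DNA, fell by similar amounts. Their log2 fold changes lay between -1.09 (Mcm7) and -0.78 (Mcm4). Mcm7 had 22.8, 24.2 and 34.2 FPKM in CGG-Cit libraries, against 58.5, 52.5 and 62.7 FPKM in CGG libraries (log2 fold change -1.09, SE 0.164, adjusted p = 0.0136). It was the most abundant subunit in each of the 6 libraries, and no CGG-Cit library reached a CGG library. Mcm5 averaged 15.8 ± 4.32 FPKM in CGG-Cit and 32.3 ± 4.997 FPKM in CGG libraries (SD, n = 3 each; log2 fold change -1.003, SE 0.204, adjusted p = 0.0248). Mcm6 averaged 20.04 ± 4.75 FPKM in CGG-Cit and 39.9 ± 4.58 FPKM in CGG libraries (log2 fold change -0.98, SE 0.176, adjusted p = 0.0194), and Mcm2 averaged 20.3 ± 4.198 FPKM in CGG-Cit and 37.8 ± 5.65 FPKM in CGG libraries (log2 fold change -0.87, SE 0.172, adjusted p = 0.0231). The remaining subunits, Mcm3 and Mcm4, were at 54.9% and 56.3% of their CGG means, and both passed as well. Summed over the 6 subunits the level was 112, 97.9 and 145 FPKM in CGG-Cit libraries, against 225, 204 and 266 FPKM in CGG libraries. The most abundant subunit exceeded the least abundant one 1.63-, 2.02- and 1.76-fold in CGG-Cit libraries, against 2.21-, 2.28- and 1.75-fold in CGG libraries. Mcm4 was the least abundant subunit in each library but CGG-Cit 2, where Mcm5 was. Mcm7 shares its place with 3 microRNA genes that the table lists on the same strand with means of 0 to 1.40 FPKM. As with the other licensing genes, these calls ended without CGG-Cit 2 or without CGG 3.

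Of the 6 genes that switch the helicase on, 5 were lower, with a median of -0.76 over the 6. Gins1, a subunit of the GINS complex, had 4.62, 4.03 and 6.97 FPKM in CGG-Cit libraries, against 11.6, 10.6 and 10.4 FPKM in CGG libraries (log2 fold change -0.96, SE 0.182, adjusted p = 0.0211). All CGG-Cit values lay under the CGG values, and the CGG libraries were close to each other. Gins2 (-0.66) and Gins3 (-0.75), from the same complex, also passed. Gins4, the remaining subunit, had 5.27, 3.62 and 5.14 FPKM in CGG-Cit libraries, against 8.67, 5.76 and 8.72 FPKM in CGG libraries, and missed the threshold (log2 fold change -0.61, SE 0.197, adjusted p = 0.0769). Its groups did not overlap, but CGG 2 was only a little above CGG-Cit 1. Cdc45, which joins Mcm and GINS into the active helicase, was the least abundant of the 43 genes, at 1.35, 1.28 and 1.53 FPKM in CGG-Cit libraries, against 3.29, 2.35 and 3.56 FPKM in CGG libraries (log2 fold change -0.76, SE 0.163, adjusted p = 0.0272). Every CGG-Cit library was lower. The claudin gene Cldn5 overlaps Cdc45 on the other strand and is listed at 0 in all 6 libraries. Mcm10, which helps start the fork, averaged 3.09 ± 0.660 FPKM in CGG-Cit and 6.13 ± 0.647 FPKM in CGG libraries (log2 fold change -0.81, SE 0.154, adjusted p = 0.0215). Leaving out single libraries gave adjusted p up to 0.0932 among the 5 genes, and Cdc45 missed the threshold on the TPM scale (adjusted p = 0.0537).

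The sliding clamp and its loader were lower throughout, 5 of 5 genes with a median of -0.73. Pcna, the ring that tethers polymerases to DNA, was the most abundant of the 43 genes. It had 92.4, 79.8 and 99.4 FPKM in CGG-Cit libraries, against 155, 134 and 163 FPKM in CGG libraries (log2 fold change -0.73, SE 0.121, adjusted p = 0.0169). The lowest CGG library stood above the highest CGG-Cit library. Rfc4, a subunit of the loader that opens the clamp, had 17.1, 14.0 and 17.4 FPKM in CGG-Cit libraries, against 24.3, 27.8 and 28.0 FPKM in CGG libraries (log2 fold change -0.70, SE 0.117, adjusted p = 0.0172). Its groups were likewise apart. The other small subunits of the loader, Rfc2, Rfc3 and Rfc5, had log2 fold changes of -0.62, -0.79 and -0.84. Rfc2 had the smallest decrease of all 34 genes that passed, at 64.2% of the CGG mean. Its call ended on the TPM scale (adjusted p = 0.0844). With single libraries left out, adjusted p among these 5 genes reached 0.0962.

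Among the polymerases and primase, 4 of 7 genes were lower, and the median of the 7 was -0.74. Prim1, the catalytic subunit of primase, which lays down the RNA primers, was the most abundant of them, with 20.7, 16.3 and 21.7 FPKM in CGG-Cit libraries, against 32.4, 28.8 and 39.0 FPKM in CGG libraries (log2 fold change -0.74, SE 0.152, adjusted p = 0.0250). The groups were apart. Its partner Prim2, the large primase subunit, had 4.57, 4.82 and 4.51 FPKM in CGG-Cit libraries, against 5.66, 5.75 and 7.29 FPKM in CGG libraries (log2 fold change -0.35, SE 0.125, adjusted p = 0.0975). The CGG-Cit values were close to each other and all lower, but the difference did not pass. Pole2, the B subunit of the leading-strand polymerase epsilon, had 2.28, 2.18 and 3.76 FPKM in CGG-Cit libraries, against 6.13, 4.49 and 8.95 FPKM in CGG libraries (log2 fold change -0.99, SE 0.261, adjusted p = 0.0455). The groups did not overlap, and CGG 3 stood far above CGG 2. The catalytic subunits of polymerases epsilon (Pole, -0.77) and delta (Pold1, -0.73) also passed. Pola1, the catalytic subunit of polymerase alpha, averaged 4.84 ± 1.02 FPKM in CGG-Cit and 7.43 ± 1.24 FPKM in CGG libraries and did not pass (log2 fold change -0.53, SE 0.173, adjusted p = 0.0791). Its accessory subunit Pola2 had 3.18, 3.81 and 6.92 FPKM in CGG-Cit libraries, against 7.47, 7.21 and 11.4 FPKM in CGG libraries (log2 fold change -0.81, SE 0.279, adjusted p = 0.0898). CGG-Cit 3 was close to CGG 1 and CGG 2, and the call failed in spite of an estimate as large as that of genes that passed. The listed gene Cdc42ep2 overlaps Pola2 on the same strand at a mean of 7.86 FPKM. All 4 calls ended on the TPM scale (adjusted p 0.0584 to 0.103), and 3 of them with no filter on low values (0.0655 to 0.0788). Left-out libraries gave adjusted p up to 0.143.

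The 4 genes of single-strand binding and lagging-strand processing divided, with 2 lower, 2 that did not pass and a median of -0.54. Fen1, the nuclease that trims flaps between Okazaki fragments, had 8.49, 6.38 and 10.5 FPKM in CGG-Cit libraries, against 15.8, 13.5 and 19.5 FPKM in CGG libraries (log2 fold change -0.88, SE 0.199, adjusted p = 0.0311). Rpa2, a subunit of the protein that coats single-stranded DNA, had 9.29, 7.19 and 11.5 FPKM in CGG-Cit libraries, against 16.3, 13.6 and 17.2 FPKM in CGG libraries (log2 fold change -0.71, SE 0.175, adjusted p = 0.0381). For both genes every CGG-Cit library was lower. Lig1, the ligase that seals the fragments, had 3.69, 3.37 and 4.41 FPKM in CGG-Cit libraries, against 5.03, 4.00 and 6.86 FPKM in CGG libraries (log2 fold change -0.37, SE 0.191, adjusted p = 0.221). CGG-Cit 3 was above CGG 2, which made Lig1 the gene whose groups overlapped. Rnaseh2a, the catalytic subunit of the ribonuclease that removes ribonucleotides from DNA, was the exception in direction. It had 28.3, 33.2 and 28.4 FPKM in CGG-Cit libraries, against 24.5, 28.3 and 23.4 FPKM in CGG libraries (log2 fold change 0.23, SE 0.112, adjusted p = 0.190). CGG-Cit 1 and CGG 2 were nearly equal, and the difference did not pass as deposited. On the TPM scale it passed as higher (log2 fold change 0.41, adjusted p = 0.0419). The calls of Fen1 and Rpa2 ended after that rescaling (adjusted p 0.0583 to 0.0932) and with no filter on low values (0.0521 to 0.0616), and left-out libraries gave adjusted p up to 0.123.

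All 4 genes of deoxynucleotide supply were lower, with a median of -0.98. Tk1, the S phase thymidine kinase of the salvage route, had the largest log2 fold change of the 43 genes. It had 20.6, 18.0 and 36.0 FPKM in CGG-Cit libraries, against 56.2, 51.5 and 66.6 FPKM in CGG libraries (log2 fold change -1.25, SE 0.253, adjusted p = 0.0247). CGG-Cit 3 was the highest of the CGG-Cit libraries and still below every control. Rrm2, the S phase subunit of ribonucleotide reductase, had 27.3, 20.3 and 42.0 FPKM in CGG-Cit libraries, against 64.0, 51.2 and 79.4 FPKM in CGG libraries (log2 fold change -1.13, SE 0.276, adjusted p = 0.0371). Rrm1, the large subunit of the enzyme, had 28.1, 23.0 and 33.0 FPKM in CGG-Cit libraries, against 51.7, 42.7 and 57.8 FPKM in CGG libraries (log2 fold change -0.84, SE 0.165, adjusted p = 0.0232). Both subunits were apart between the groups, with CGG-Cit 2 lowest of the 6 libraries. Tyms, which makes thymidylate from deoxyuridylate, had 9.10, 12.4 and 14.5 FPKM in CGG-Cit libraries, against 22.9, 17.8 and 20.4 FPKM in CGG libraries (log2 fold change -0.73, SE 0.179, adjusted p = 0.0375). Unlike most of the 43 genes, Tyms was lowest in CGG-Cit 1 and highest in CGG 1. The calls of Rrm2 and Tyms ended on the TPM scale (adjusted p 0.0566 to 0.0912) and with no filter on low values (0.0601 to 0.0623), and left-out libraries gave adjusted p up to 0.119.

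Behind the fork, 2 of the 4 genes of chromatin assembly and methylation were lower, with a median of -0.81 over the 4. Uhrf1, which brings the maintenance methyltransferase to newly copied DNA, had 9.04, 7.49 and 15.7 FPKM in CGG-Cit libraries, against 22.5, 19.6 and 29.9 FPKM in CGG libraries (log2 fold change -1.13, SE 0.274, adjusted p = 0.0362). The groups did not overlap, and CGG-Cit 3 stood well above the other CGG-Cit libraries. Dnmt1, that methyltransferase, had 18.2, 15.8 and 19.9 FPKM in CGG-Cit libraries, against 25.9, 21.9 and 29.6 FPKM in CGG libraries, and narrowly missed the threshold (log2 fold change -0.50, SE 0.1397, adjusted p = 0.0540). Its groups did not overlap. Chaf1a, the large subunit of the histone chaperone that loads nucleosomes behind the fork, averaged 7.51 ± 1.61 FPKM in CGG-Cit and 14.4 ± 2.45 FPKM in CGG libraries (log2 fold change -0.86, SE 0.178, adjusted p = 0.0250). Chaf1b, its middle subunit, averaged 2.53 ± 0.881 FPKM in CGG-Cit and 4.90 ± 0.851 FPKM in CGG libraries and did not pass (log2 fold change -0.76, SE 0.211, adjusted p = 0.0521). Of the 3 proteins that protect a moving fork, 2 were lower, with a median of -0.76. Tipin averaged 10.5 ± 3.13 FPKM in CGG-Cit and 18.2 ± 2.56 FPKM in CGG libraries (log2 fold change -0.76, SE 0.202, adjusted p = 0.0461) and Clspn, the adaptor of the replication checkpoint, averaged 1.67 ± 0.533 FPKM in CGG-Cit and 3.42 ± 0.430 FPKM in CGG libraries (log2 fold change -0.74, SE 0.182, adjusted p = 0.0373). Timeless, the partner of Tipin, averaged 4.73 ± 1.92 FPKM in CGG-Cit and 8.66 ± 1.82 FPKM in CGG libraries, with an estimate as large as theirs but a wider spread (log2 fold change -0.79, SE 0.252, adjusted p = 0.0755). Uhrf1, Tipin and Clspn missed the threshold on the TPM scale (adjusted p 0.0524 to 0.0889) and with no filter on low values (0.0613 to 0.0733), and left-out libraries gave adjusted p up to 0.142.

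Many of these genes encode subunits of complexes whose other subunits were also in the table. In 9 complexes, 19 of the 43 genes were set beside 16 other subunits, a grouping made after the values were seen. Of the 19, 14 were lower and the median log2 fold change was -0.76. Of the 16, 4 were lower with a median of -0.10, and the difference between these sets was not tested. In the origin recognition complex, Orc1 and Orc6 were lower while Orc2, Orc3, Orc4 and Orc5 had estimates of -0.32, 0.08, 0.13 and 0.03 and did not pass. In the clamp loader, the large subunit Rfc1 had 12.2 ± 0.387 FPKM in CGG-Cit and 12.9 ± 1.42 FPKM in CGG libraries (log2 fold change -0.08, SE 0.107, adjusted p = 0.654), beside 4 small subunits that were lower. Of the accessory subunits of polymerase delta, Pold2 was lower (-0.40), and Pold3 and Pold4 were at 0.10 and 0.25 without passing. Pole3 and Pole4, the histone-fold subunits of polymerase epsilon, were at -0.01 and -0.13. All subunits of replication protein A were lower, Rpa1 at -0.44 and Rpa3 at -0.57 beside Rpa2. In ribonuclease H2, Rnaseh2b was lower (log2 fold change -0.71, SE 0.125, adjusted p = 0.0189) while the catalytic Rnaseh2a was not. Without CGG-Cit 2 or without CGG 3 the calls of these 4 other subunits ended too (adjusted p up to 0.139 with a library left out), and Pold2, Rpa1 and Rnaseh2b missed the threshold on the TPM scale, as did Rpa1 with no filter on low values.

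**Figure D4:**
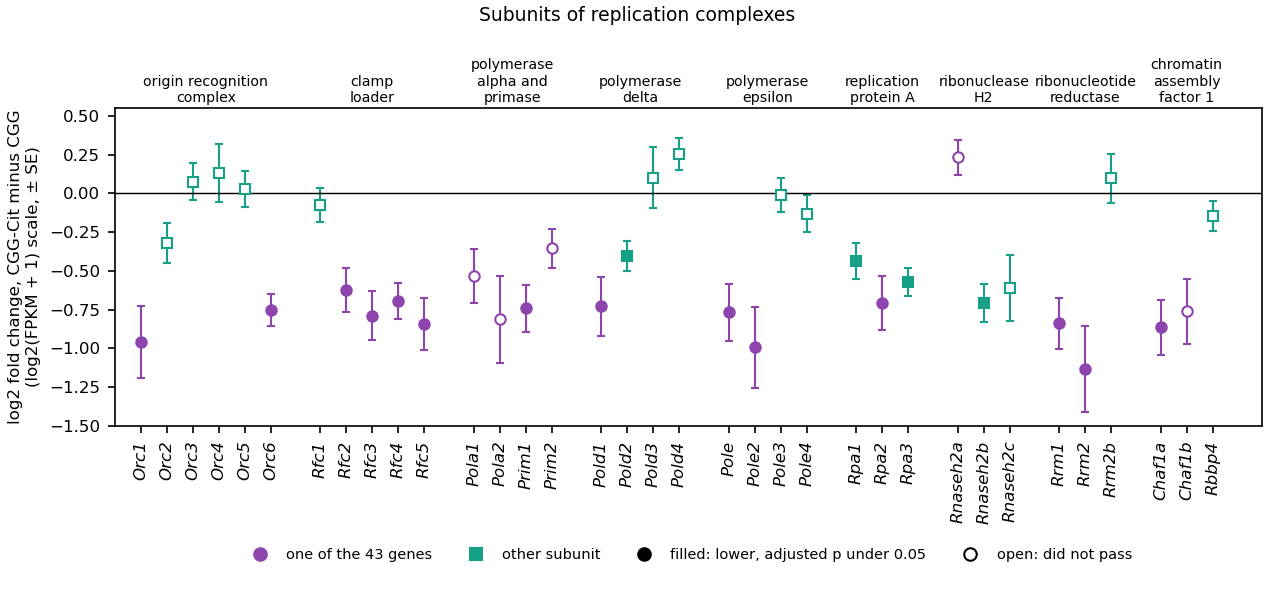
Log2 fold change (CGG-Cit over CGG, from log2(FPKM + 1) values, with SE) of the subunits of 9 replication complexes, with the 43 genes as circles and other subunits as squares. Filled symbols passed as lower, 14 of 19 circles and 4 of 16 squares.

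Ratios within a library, which do not depend on its scaling, were compared for 11 pairs that were not among the planned comparisons. The ratio of Rrm2 to Rrm2b, the subunit of ribonucleotide reductase used outside S phase and after DNA damage, was 3.98, 2.44 and 4.85 in CGG-Cit libraries, against 7.84, 8.80 and 9.60 in CGG libraries. The ratio of Dnmt1 to Dnmt3a, a methyltransferase that sets new marks, was 2.04, 2.19 and 2.95 in CGG-Cit libraries, against 5.83, 5.58 and 6.79 in CGG libraries. Both ratios were lower in every CGG-Cit library. The ratio of Orc1 to Orc4 was 0.158, 0.177 and 0.495 in CGG-Cit libraries, against 0.554, 0.657 and 0.661 in CGG libraries. The ratio of Tk1 to its mitochondrial counterpart Tk2 was 1.997, 1.70 and 3.08 in CGG-Cit libraries, against 3.40, 3.10 and 4.97 in CGG libraries. The ratio of Cdt1 to Gmnn, the inhibitor of Cdt1, was 0.929, 1.05 and 0.940 in CGG-Cit libraries, against 1.14, 1.28 and 1.26 in CGG libraries. These 3 were lower in every CGG-Cit library as well, although the ratio of Tk1 to Tk2 differed little between CGG-Cit 3 and CGG 2. The ratio of Rnaseh2a to Rnaseh2b ran the other way, at 2.02, 2.54 and 1.73 in CGG-Cit libraries, against 0.949, 1.33 and 0.902 in CGG libraries. So did that of Dnmt1 to Uhrf1, at 2.01, 2.11 and 1.27 in CGG-Cit libraries, against 1.15, 1.12 and 0.991 in CGG libraries. Among the 11 ratios, 9 did not overlap between the gels, each with an exact two-sided permutation p of 0.1, the smallest that 3 against 3 libraries allow (0.122 after Benjamini-Hochberg adjustment over the 11). The ratios of Rrm2 to Rrm1 and of Pcna to the proliferation marker Mki67 overlapped (exact permutation p = 0.3). A ratio of genes with unlike fold changes restates those changes, and the share of other gene pairs without overlap was not counted.

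Further genes of the pathway were counted in lists. Of 29 other replication factors, 9 were lower and 0 higher, with a median of -0.41. They included Topbp1, which helps to activate origins and the checkpoint (log2 fold change -0.68, SE 0.131, adjusted p = 0.0220), and the topoisomerase Top1 (-0.60), while Gmnn averaged 10.4 ± 2.58 FPKM in CGG-Cit and 17.9 ± 3.52 FPKM in CGG libraries and did not pass (log2 fold change -0.74, SE 0.209, adjusted p = 0.0553). Of 18 further deoxynucleotide enzymes, 6 were lower and 0 higher, with a median of -0.43. The leading one was Dut, which keeps uracil out of DNA, with 42.4, 46.6 and 66.0 FPKM in CGG-Cit libraries, against 117, 108 and 134 FPKM in CGG libraries (log2 fold change -1.22, SE 0.179, adjusted p = 0.0129). Its groups were far apart. The salvage kinase Dck averaged 15.7 ± 2.71 FPKM in CGG-Cit and 25.7 ± 5.91 FPKM in CGG libraries and did not pass (log2 fold change -0.66, SE 0.203, adjusted p = 0.0685). Of 16 genes that make purines and pyrimidines from the start, 4 were lower and 0 higher with a median of -0.28, among them Ppat, the first enzyme of the purine route (-0.75). Of 15 checkpoint and fork repair genes, 5 were lower and 0 higher with a median of -0.38. Of 13 partners in chromatin assembly, 3 were lower and 1 higher with a median of -0.31. The histone chaperone Asf1b was lower (-1.15), and Dnmt3a was the gene that was higher (log2 fold change 0.71, SE 0.131, adjusted p = 0.0201). The calls of the genes named here ended without CGG-Cit 2 and without CGG 3 (adjusted p up to 0.0903 with a library left out, for Asf1b), and Topbp1, Top1 and Ppat missed the threshold on the TPM scale. On that scale 2 of the other replication factors, 1 further deoxynucleotide enzyme, 2 purine and pyrimidine genes, 1 checkpoint gene and 1 chromatin assembly partner were lower. Higher on that scale were 1 other replication factor, 1 purine and pyrimidine gene and 1 chromatin assembly partner. With no filter on low values, 3 further deoxynucleotide enzymes and 1 checkpoint gene stayed lower.

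Regulators of S phase entry were mostly lower, but the D-type cyclins divided. Of 24 genes, 13 were lower and 2 higher with a median of -0.54. E2f2, an activating member of the E2F family, had 20.5, 15.2 and 30.2 FPKM in CGG-Cit libraries, against 49.8, 47.3 and 61.0 FPKM in CGG libraries (log2 fold change -1.27, SE 0.239, adjusted p = 0.0211). Its dimer partner Tfdp1 averaged 31.8 ± 5.73 FPKM in CGG-Cit and 57.2 ± 3.79 FPKM in CGG libraries (log2 fold change -0.84, SE 0.136, adjusted p = 0.0160), and Ccne2, a cyclin of the G1 to S transition, averaged 5.72 ± 1.86 FPKM in CGG-Cit and 11.2 ± 1.64 FPKM in CGG libraries (log2 fold change -0.89, SE 0.211, adjusted p = 0.0346). The groups did not overlap in these genes. Ccnd3 had 81.4, 75.5 and 122 FPKM in CGG-Cit libraries, against 188, 176 and 208 FPKM in CGG libraries (log2 fold change -1.06, SE 0.190, adjusted p = 0.0192). Ccnd1, another cyclin that drives G1, had 44.2, 42.0 and 32.3 FPKM in CGG-Cit libraries, against 16.1, 21.7 and 17.7 FPKM in CGG libraries (log2 fold change 1.05, SE 0.159, adjusted p = 0.0136). Ccnd1 was thus higher in every CGG-Cit library and Ccnd3 lower in every one. Among 5 inhibitors of cyclin-dependent kinases, 1 was lower, Cdkn2c (-0.89), and the median was 0.27. Cdkn1a, the inhibitor induced by p53, had 74.0, 43.2 and 30.7 FPKM in CGG-Cit libraries, against 18.2, 26.4 and 28.0 FPKM in CGG libraries, and did not pass (log2 fold change 0.93, SE 0.323, adjusted p = 0.0931), although it passed as higher on the TPM scale (adjusted p = 0.0435) and without CGG-Cit 3 (0.0364). Cdkn1b averaged 51.4 ± 4.70 FPKM in CGG-Cit and 64.7 ± 3.85 FPKM in CGG libraries (log2 fold change -0.33, SE 0.0989, adjusted p = 0.0642), and Cdkn1c averaged 23.3 ± 4.13 FPKM in CGG-Cit and 14.0 ± 5.78 FPKM in CGG libraries (log2 fold change 0.75, SE 0.291, adjusted p = 0.120), and neither passed. The calls of the genes named here ended without CGG-Cit 2 and without CGG 3, with adjusted p of up to 0.114 (Ccne2), and Ccne2 missed the threshold on the TPM scale, where 7 of the 24 genes were lower, as with no filter on low values.

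The genes of mitosis, which follow S phase, were lower in 19 of 19 cases with a median of -1.09. Mki67 had 25.1, 20.7 and 39.9 FPKM in CGG-Cit libraries, against 60.1, 46.0 and 75.1 FPKM in CGG libraries (log2 fold change -1.08, SE 0.271, adjusted p = 0.0399), and Top2a, the topoisomerase that untangles chromosomes, averaged 25.2 ± 8.54 FPKM in CGG-Cit and 59.5 ± 13.3 FPKM in CGG libraries (log2 fold change -1.23, SE 0.258, adjusted p = 0.0259). Averaged as log2 values centred on each gene's mean, the 43 replication genes scored -0.47, -0.60 and -0.12 in CGG-Cit libraries, against 0.37, 0.23 and 0.59 in CGG libraries. The mitosis genes scored -0.69, -0.83 and -0.09 in CGG-Cit libraries, against 0.58, 0.30 and 0.74 in CGG libraries. Both scores ranked the 6 libraries in the same order, with CGG-Cit 3 nearest to the controls. Without CGG-Cit 2, 1 of the 19 mitosis genes passed as lower, and without CGG 3, 0 did. The calls of Mki67 and Top2a ended without CGG-Cit 2 or without CGG 3 (adjusted p up to 0.125 with a library left out). On the TPM scale 14 of the 19 were lower, and with no filter on low values 13 were. Mki67 missed the threshold in both of these fits.

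Markers of marrow precursors moved with the replication genes. Red cell precursor markers were lower in 8 of 9 cases, with a median of -1.36, and summed to 274 to 523 FPKM in CGG-Cit and 891 to 1092 FPKM in CGG libraries. Neutrophil precursor markers were lower in 9 of 9 cases, with a median of -1.82, and summed to 757 to 2068 FPKM in CGG-Cit and 4018 to 4709 FPKM in CGG libraries, and Ltf, the tenth, was too low to test. B cell precursor markers were lower in 6 of 10 cases, with a median of -1.19, and summed to 49.1 to 92.4 FPKM in CGG-Cit and 131 to 203 FPKM in CGG libraries. The red cell score was -0.73, -1.02 and -0.19 in CGG-Cit libraries, against 0.52, 0.65 and 0.77 in CGG libraries, and the neutrophil score was -0.98, -1.54 and -0.14 in CGG-Cit libraries, against 0.82, 0.78 and 1.06 in CGG libraries. In both, as for replication, CGG-Cit 2 was lowest and CGG 3 highest. The B cell precursor score was instead lowest in CGG-Cit 1, at -0.92, -0.52 and -0.21 in CGG-Cit libraries, against 0.67, 0.17 and 0.81 in CGG libraries. Osteoblast markers were lower in 5 of 10 cases with a median of -0.94, and their score was lowest in CGG-Cit 1 (-1.005, -0.15 and -0.15 in CGG-Cit libraries, against 0.22, 0.54 and 0.55 in CGG libraries). Most macrophage markers went the other way, with 8 of 10 higher, a median of 0.90 and sums of 1637 to 2388 FPKM in CGG-Cit and 897 to 1045 FPKM in CGG libraries. The lowest macrophage estimate was -0.49, and 1 macrophage marker passed as lower without CGG-Cit 3. Of 9 T cell markers, 1 was higher (median 0.92). On the TPM scale and without CGG-Cit 3, 5 of the 9 T cell markers were higher. Leaving out each library in turn gave 1 to 8 red cell, 0 to 9 neutrophil, 0 to 7 B cell precursor and 1 to 5 osteoblast markers lower, and 1 to 8 macrophage markers and 0 to 5 T cell markers higher. Each of these lowest counts was reached without CGG 3, and without CGG-Cit 2 each count was 2 or fewer. No marker tested was listed at 0 in any library. The part of any of these cell types in the replication result was not tested.

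**Figure D5:**
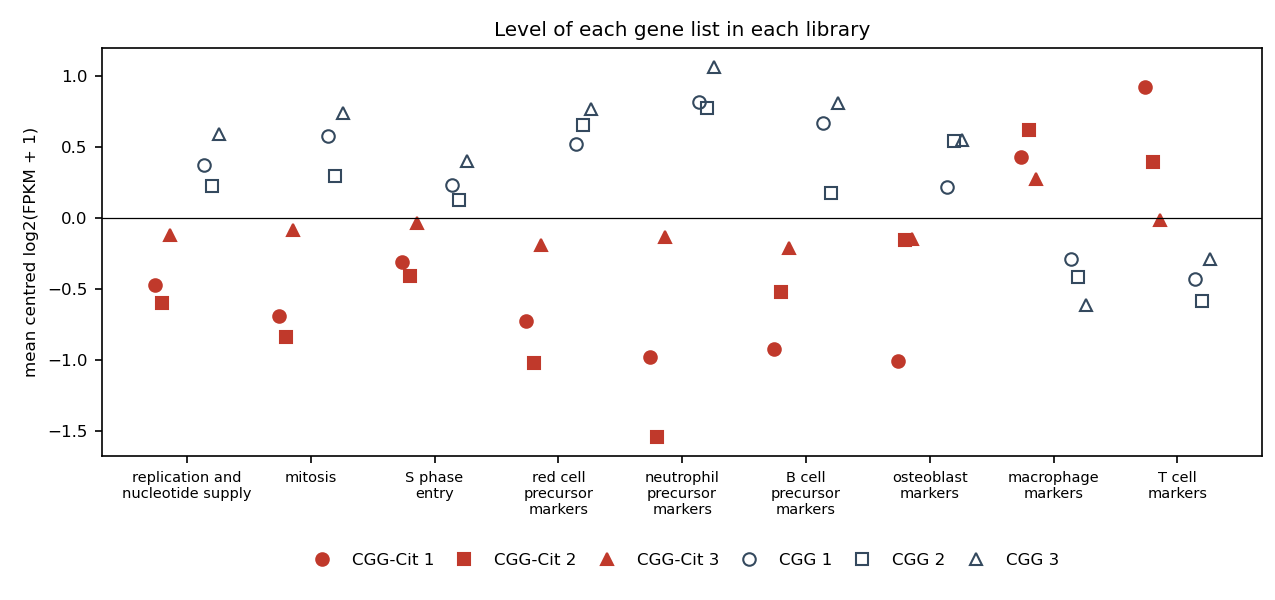
Mean centred log2(FPKM + 1) of each gene list in each library, with the CGG-Cit libraries in one colour and the CGG libraries in the other. The replication, mitosis and marrow precursor lists lie below 0 in the 3 CGG-Cit libraries and above 0 in the 3 CGG libraries, and the macrophage list lies the other way round.

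The fold changes of the genes with and without E2F strings are set side by side here. Of the 20 genes with a string, 16 were lower and the median log2 fold change was -0.79, while of the 18 genes with a window but no string, 14 were lower with a median of -0.75. Of the 5 genes without a matched window (Orc1, Cdc6, Mcm4, Gins4 and Rrm2), 4 were lower. Mcm7, with a string at 52 bases before its start, and Tk1, with none in its window, were both among the genes with the largest decreases, and Lig1, with a string 20 bases after its start, did not pass. No test was made of these sets.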

How the data were processed

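Total RNA from 3 CGG-Cit and 3 CGG libraries was measured by RNA-seq. The authors deposited 1 table of FPKM per gene. DESeq2 1.20.0, featureCounts 1.5.0-p3 and HISAT2 2.0.5 are the tools, and mRatBN7.2 the build, in the submitters' processing notes, with no role or order. No annotation, strand setting or build of the table's coordinates was given in the sources used here. Multiplied by the listed gene length, 100% of the values were whole multiples of 1 fragment within 0.01 fragments, which gave 14744207 to 16224920 fragments per library. The library size behind the FPKM was above the recovered number in the CGG-Cit libraries and CGG 1. It was below that number in CGG 2 and CGG 3 (1.56315e+07 against 16224920 in CGG 2). How it was set was not given.

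Values were compared as log2(FPKM + 1) with limma 3.58.1 in R 4.3.3 (lmFit, then eBayes with trend), over 15965 genes that averaged 0.5 FPKM or more. Benjamini-Hochberg adjustment of the p-values covered all of them, with a threshold of 0.05. Fold changes on this scale understate the change of low genes. The fit was tested on simulated data. Alternatives were other pseudocounts, filters, scalings and thresholds, robust variances, library weights, a replicate block, voom on the recovered fragments, and leaving out each library. Reads shared with near-identical copies or overlapping genes cannot be told apart here.

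The 43 genes and all gene lists were chosen with earlier results of these data known. The text names all 43 genes, up to 4 genes of each other list with the smallest p-values, and Mki67, Top2a, Gmnn, Ccne2, Cdkn1a, Cdkn1b, Cdkn1c and Dck; some items under this rule are not reported here. The other subunits set beside the 43 genes were chosen after values were seen, and the 11 ratios were not planned. E2f1, Dna2, Cdkn2d, Ccnb2, Trac, Myh2 and Myh4 were not matched and are not analysed here. Promoter windows came from RefSeq (GRCr8). Figures were drawn with matplotlib 3.10.9.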

Additional observations from a re-analysis of the deposited data

How the results depend on the processing

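With all 6 libraries, 34 of the 43 genes were lower and 0 higher, among 1561 lower and 1237 higher of all genes. No direction reversed among the results recomputed here. Leaving out each library in turn gave 0 to 38 of the 43 genes lower, 190 to 1622 of all genes lower and 122 to 1312 higher, and put the median log2 fold change of the 43 genes between -0.94 and -0.69. With no filter on low values 22 of the 43 were lower. Rescaling to TPM gave 19 lower and 1 higher of the 43 (Rnaseh2a) and 948 lower and 2203 higher of all genes, so that 69.9% of all calls were higher, against 44.2% as deposited. No label says whether the replicate numbers pair the libraries. Deviations of same-numbered libraries correlated at -0.0956, 0.00165 and -0.0779, but so few libraries cannot settle whether they were paired. With the replicate block 35 of the 43 and 1055 of all genes were lower and 612 of all genes higher. At an adjusted p under 0.1, 41 of the 43, 2413 of all genes lower and 2083 higher passed, and under 0.01, 0 of the 43, 156 lower and 79 higher. Other pseudocounts, a filter at 2 FPKM, other scalings, robust variances, library weights and voom gave 30 to 39 of the 43 genes lower. Among results for single genes, 491 lost a call and 54 gained one over all alternatives, and 1635 values kept theirs; the cause was not tested. Of the 34 genes called, 0 passed in all 18 alternative fits, 34 were lost without CGG-Cit 2 and without CGG 3, and 0 without CGG-Cit 3. The fewest fragments of any of the 43 genes in a library were 55 (Chaf1b), and no fit at another depth was made.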
